A study of Homo sapiens with 8 samples.

Results

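The 9 integrin subunit genes described here, ITGA2, ITGA3, ITGA5, ITGAV, ITGAE, ITGB1, ITGB5, ITGB6 and ITGB8, were taken by symbol from a count table of 40693 gene symbols and leave out the hemidesmosome pair ITGA6 and ITGB4. All 9 had reads in all 8 RNA sequencing libraries, and none of their symbols was repeated. The libraries came from established human colorectal cancer lines: 3 libraries of SW620 carrying a hairpin RNA against FOXA2 (shFOXA2), 3 of SW620 carrying a control hairpin (shNC), 1 of untreated SW620 and 1 of untreated SW480. The labels place the tumour of SW620 at Dukes' stage C and that of SW480 at stage B. FOXA2 encodes a forkhead transcription factor known for opening chromatin in endoderm and liver, and the series title concerns spread of colorectal cancer to the liver. Both hairpins were expressed from the U6 promoter of a lentiviral vector with puromycin resistance and mCherry, in stable populations selected with puromycin, so shFOXA2 and shNC cells share the vector and the selection that the untreated lines lack. The labels list 2 FOXA2 target sequences, and the titles of the shFOXA2 samples point to hairpin 1 without spelling it out. They do not say whether replicates were separate cultures, so p-values measure only the spread between these libraries, which may be technical.

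Integrins are cell surface receptors made of an alpha and a beta subunit, and the pairing sets which ligand is bound. ITGB1 encodes the most widely shared beta subunit, which pairs with the products of ITGA2 (a collagen receptor), ITGA3 (a laminin receptor) and ITGA5 (the classical fibronectin receptor). ITGAV encodes an alpha subunit that joins the products of ITGB1, ITGB3, ITGB5, ITGB6 or ITGB8 and binds ligands with an arginine-glycine-aspartate motif, such as vitronectin, fibronectin and the latent form of transforming growth factor beta (TGF-beta). ITGAE pairs with ITGB7 in a receptor for E-cadherin that is best known from lymphocytes lodged in gut epithelium. In epithelial tumours these receptors fasten cells to matrix and pass signals through talin, kindlin and vinculin to actin.

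Total counts were 7478411 to 12068790 in shFOXA2, 12133652 to 13076566 in shNC, 95935348 in SW620 and 72323506 in SW480, and the 9 genes together took 0.0636% to 0.0910% of counts. A limit of 3 counts is 0.229 to 0.401 CPM (read counts put on 1 common library size) in the hairpin libraries. Replicate 1 stood apart in both groups: the chi-square of counts per degree of freedom between replicates was 3.90 and 4.53 for pairs with replicate 1 and 1.66 without it in shFOXA2, and 4.43 and 4.34 with it and 1.74 without it in shNC. FOXA2 itself averaged 27.3 ± 4.40 CPM in shFOXA2 and 51.1 ± 1.86 CPM in shNC (SD, n = 3 each), with no overlap (edgeR adjusted p = 6.88e-10). In such bulk libraries, fewer cells of a type and less RNA per cell cannot be told apart. Epithelial markers were abundant, KRT8 having 4396 to 4681 CPM in shFOXA2 and 4432 to 4908 CPM in shNC, with overlap. Of 7 epithelial markers tested, 3 rose in shFOXA2 (CDX2, VIL1 and KRT18) and 2 fell (EPCAM and KRT19). Over all tested genes 19.2% rose and 19.8% fell. KRT18, EPCAM and KRT19 lost the call without some single libraries. The fibroblast collagens COL1A2 and COL3A1 had 0 counts in all 6 hairpin libraries, but other markers of the same list had reads. COL1A1 had 2.99 to 6.27 CPM in shFOXA2 and 2.03 to 2.26 CPM in shNC. LUM had 11.5 to 14.3 CPM in shFOXA2 and 8.23 to 9.34 CPM in shNC. ACTA2 had 284, 9 and 15 counts in shFOXA2 replicates 1 to 3, and 18 to 28 in shNC. The leukocyte gene PTPRC had 11 to 17 counts in shFOXA2 and 9 to 42 in shNC. The summed level of 13 leukocyte markers was 41.0 to 47.6 CPM in shFOXA2 and 24.9 to 30.6 CPM in shNC. Of the 8 tested leukocyte markers, 4 rose and 0 fell, against 19.2% and 19.8% of all tested genes. The sum of 13 fibroblast and endothelial markers, mostly vimentin, was 725 to 735 CPM in shFOXA2 and 464 to 512 CPM in shNC. Of the 5 tested, 3 rose (COL1A1, LUM and vimentin), 1 fell (TAGLN) and ACTA2 did not pass, where 19.2% of all tested genes rose and 19.8% fell. In the untreated lines these sums were 25.1 CPM in SW620 and 12.3 CPM in SW480 for leukocytes, and 129 CPM in SW620 and 218 CPM in SW480 for fibroblasts and endothelium. The part of either in the integrin values was not tested.

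The comparison of shFOXA2 with shNC asked how transcripts of these receptors differed between cells with the FOXA2 hairpin and cells with the control hairpin. The titles point to a single FOXA2 hairpin, so lower FOXA2 and other effects of that hairpin or its selected population cannot be told apart. With edgeR's quasi-likelihood test and Benjamini-Hochberg adjustment over 16100 genes, 6 of the 9 rose in shFOXA2 and 0 fell: ITGA2, ITGA3, ITGA5, ITGAV, ITGB1 and ITGB8. Over all tested genes 39.0% passed the same threshold, an adjusted p of 0.05, with 19.2% higher and 19.8% lower. The median log2 fold change was 0.62 over the 9 genes and 0.01 over all tested genes. All 9 passed the filter on low counts. For 7 of them all shFOXA2 libraries lay above all shNC libraries, against 24.2% of tested genes. The genes were chosen with earlier results of these data known, so these counts describe them and do not set them apart from other genes.

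**Figure D1:**
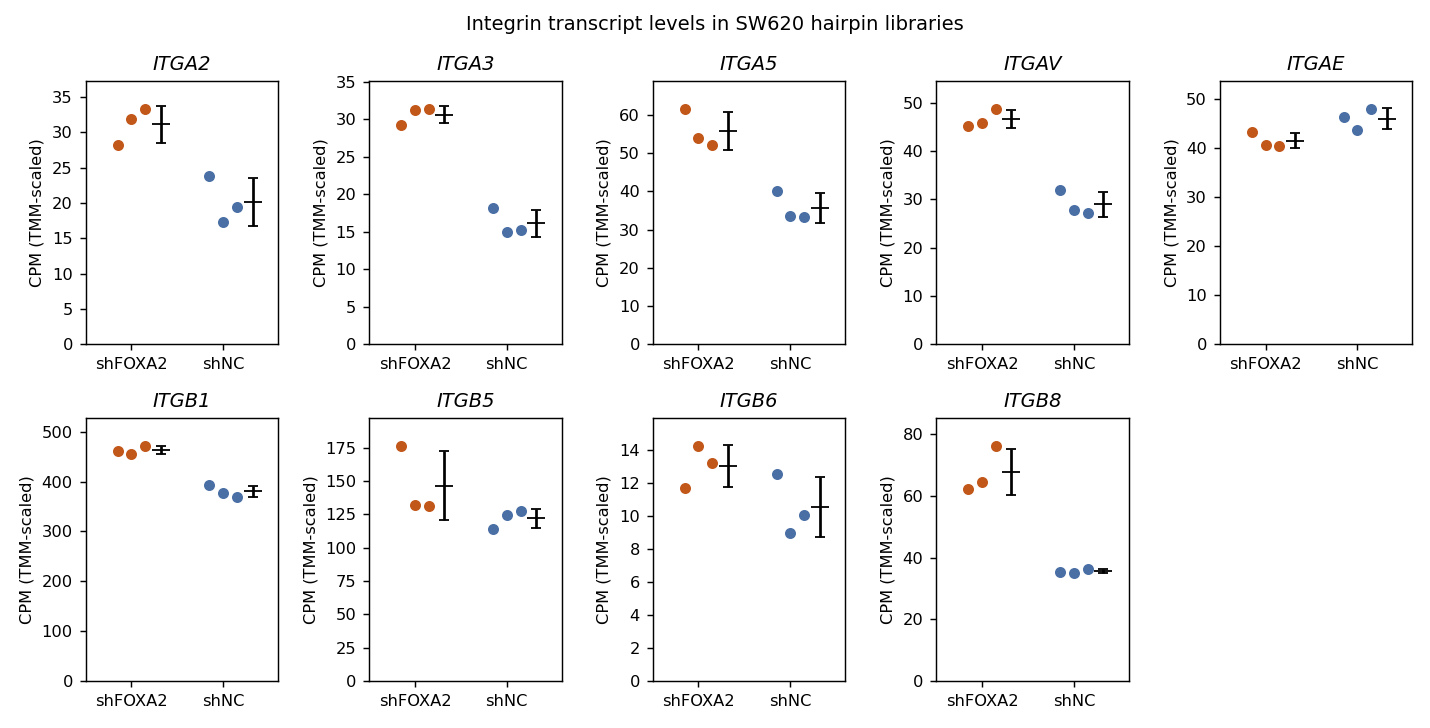
Level of each integrin gene in the hairpin libraries, in CPM scaled by the trimmed mean of M values (TMM), on a linear axis from 0. Coloured points are libraries (replicates 1 to 3 from left to right), and black marks are the mean and SD of 3. ITGA2, ITGA3, ITGA5, ITGAV, ITGB1, ITGB5 and ITGB8 separate upward in shFOXA2, ITGAE separates downward by a narrow margin, and ITGB6 overlaps.

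Among the partners of ITGB1, the laminin receptor gene ITGA3 (chr17:50055968-50090481, plus strand) changed most. It had 29.3, 31.2 and 31.3 CPM in shFOXA2 replicates 1 to 3, against 18.1, 14.9 and 15.3 CPM in shNC replicates 1 to 3. The groups lay well apart, and the gene rose 1.89-fold (log2 fold change 0.92, SE 0.09, edgeR adjusted p = 5.58e-11). The collagen receptor gene ITGA2 (chr5:52989326-53094779, plus strand) had 28.2, 31.9 and 33.2 CPM in shFOXA2, against 23.8, 17.2 and 19.4 CPM in shNC. It rose by 0.62 on the log2 scale (SE 0.10, edgeR adjusted p = 7.62e-06), and its lowest shFOXA2 and highest shNC values both came from replicate 1.

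The fibronectin receptor gene ITGA5 (chr12:54395261-54419460, minus strand) had 61.5, 53.9 and 52.1 CPM in shFOXA2, against 40.2, 33.5 and 33.3 CPM in shNC. Replicate 1 was the highest library of each group, and every shFOXA2 value stood above every shNC value (log2 fold change 0.65, SE 0.08, edgeR adjusted p = 2.11e-08). ITGB1 (chr10:32900319-33005792, minus strand), the shared beta subunit, had 461, 456 and 472 CPM in shFOXA2, against 393, 378 and 369.8 CPM in shNC. Its rise was the smallest of those that passed, at 1.22-fold (log2 fold change 0.28, SE 0.04, edgeR adjusted p = 3.45e-07), but both groups were tight, with SDs of 8.18 and 11.8 CPM.

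ITGAV (chr2:186590065-186680901, plus strand), the alpha subunit of the arginine-glycine-aspartate receptors, had 45.2, 45.8 and 48.7 CPM in shFOXA2, against 31.99, 27.9 and 27.2 CPM in shNC. The gap between the groups exceeded the spread within either (log2 fold change 0.68, SE 0.08, edgeR adjusted p = 9.53e-10). Of the tested beta subunits that join it, ITGB8 changed most, while ITGB1, ITGB5 and ITGB6 had log2 fold changes of 0.28, 0.27 and 0.30. ITGB8 (chr7:20330702-20415754, plus strand), whose product binds latent TGF-beta, had 62.3, 64.4 and 76.2 CPM in shFOXA2, against 35.4, 35.0 and 36.2 CPM in shNC. It rose 1.90-fold (log2 fold change 0.93, SE 0.07, edgeR adjusted p = 1.99e-14), close to ITGA3, and its shNC values were nearly equal. The order of these 2 genes was not stable: without shNC replicate 1 the log2 fold change was 1.00 for ITGA3 and 0.91 for ITGB8.

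ITGB6 (chr2:160099666-160200313, minus strand) is a beta subunit largely restricted to epithelium that also binds latent TGF-beta. It had 11.7, 14.3 and 13.2 CPM in shFOXA2, against 12.5, 9.003 and 10.1 CPM in shNC. The groups overlapped through replicate 1 of each, and the gene did not pass (log2 fold change 0.30, SE 0.13, edgeR adjusted p = 0.0666). It passed without shFOXA2 replicate 1 (log2 fold change 0.38, edgeR adjusted p = 0.0425) and without shNC replicate 1 (0.43, adjusted p = 0.0112). An annotated transcript on the same strand shares 966 exon bases with ITGB6, so its reads cannot be told apart from those of ITGB6.

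ITGB5 (chr3:124761948-124901418, minus strand), the beta subunit of a vitronectin receptor, had 176, 132 and 131 CPM in shFOXA2, against 114, 124 and 128 CPM in shNC. The groups did not overlap, but replicates 2 and 3 of shFOXA2 lay close to the highest shNC library, and replicate 1 alone was high. ITGB5 did not pass (log2 fold change 0.27, SE 0.15, edgeR adjusted p = 0.244). Without shFOXA2 replicate 1 its log2 fold change was 0.11 (edgeR adjusted p = 0.130).

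ITGAE (chr17:3714628-3801243, minus strand) was the one member with lower values in shFOXA2. It had 43.2, 40.6 and 40.5 CPM in shFOXA2, against 46.2, 43.7 and 47.9 CPM in shNC. The groups were separate by a narrow margin and the gene did not pass (log2 fold change -0.15, SE 0.07, edgeR adjusted p = 0.0886). ITGAE holds on its opposite strand the gene of the mitotic kinase haspin, listed as GSG2, which shares 427 exon bases with it and had 19.5 to 21.1 CPM in shFOXA2 and 20.6 to 23.4 CPM in shNC. No source used here says whether counting used strand, so reads in the shared bases cannot be assigned with certainty. ITGB7, the partner of ITGAE, had 95.7, 92.5 and 91.0 CPM in shFOXA2, against 33.6, 43.0 and 39.1 CPM in shNC. Thus ITGB7 rose (log2 fold change 1.27, SE 0.07, edgeR adjusted p = 1.18e-16) while ITGAE had a fold change close to 1.

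**Figure D2:**
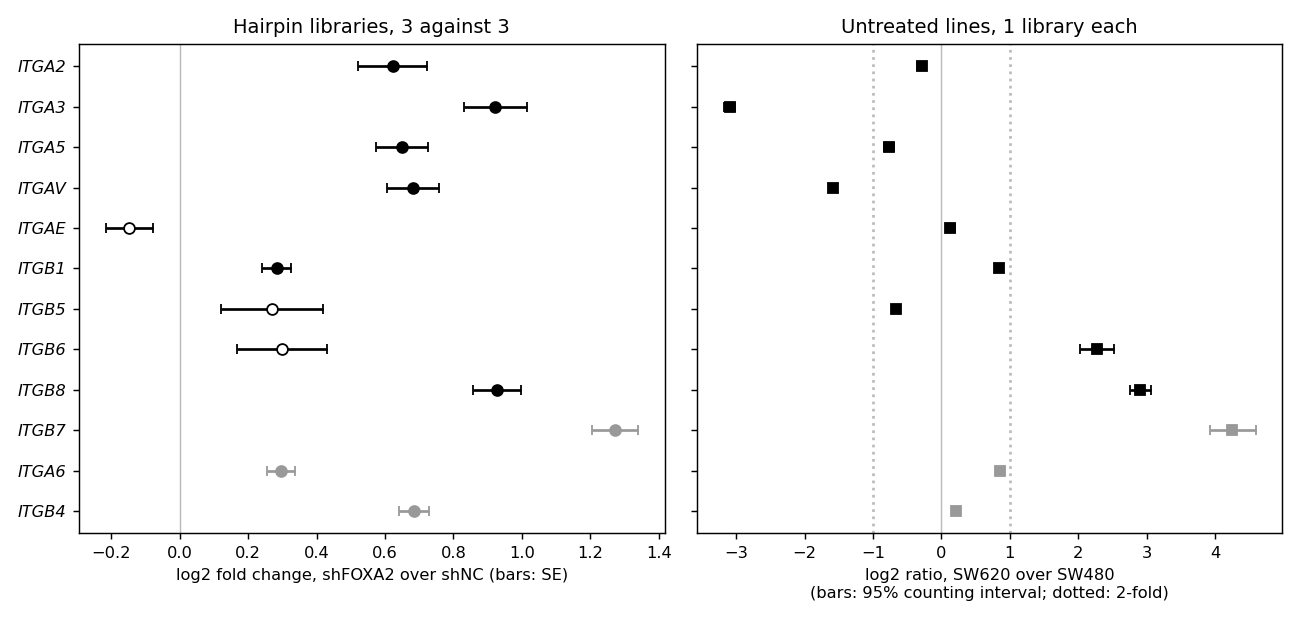
Left, log2 fold change of shFOXA2 over shNC with its SE from edgeR, filled where the adjusted p was under 0.05. Right, log2 ratio of untreated SW620 over untreated SW480 from TMM-scaled counts with exact 95% intervals that cover counting error only, where dotted lines mark 2-fold. Black marks are the 9 integrin genes, grey marks are ITGB7, ITGA6 and ITGB4. ITGB8 stands right of 0 in both panels, and ITGA3 stands at 0.92 on the left and far below 0 on the right.

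Promoter windows from RefSeq (GRCh38.p14, 250 bases before to 50 after an annotated start) were matched for 8 of the 9 genes, with 12 windows in all. ITGA3 was not matched. They were searched on both strands for 4 motifs. Matches of different motifs overlapped in 0 cases, and within 1 ITGB1 window a pair of TATA box matches overlapped each other. The AP-1 motif, spelled TGANTCA, stood in 1 of the 12 windows, against 7.71% of all 35116 RefSeq windows. The FOXA motif, spelled TGTTTAC, stood in 0 of the 12, against 3.42% of all windows. The TATA box, spelled TATAAA, stood in 1 window of the 12, against 11.5%. The SP/KLF motif, spelled GGGCGG, stood in 7 of the 12, against 44.95%. The windows of ITGA5, which holds the AP-1 match, and of ITGB8, which rose 1.90-fold, are shown 5′ to 3′ with the matches in capitals. In ITGA5 the AP-1 match begins 6 bases before the annotated start, and in ITGB8 both capital runs are SP/KLF matches on the other strand.
ITGA5 promoter, chr12:54419217-54419516, minus strand: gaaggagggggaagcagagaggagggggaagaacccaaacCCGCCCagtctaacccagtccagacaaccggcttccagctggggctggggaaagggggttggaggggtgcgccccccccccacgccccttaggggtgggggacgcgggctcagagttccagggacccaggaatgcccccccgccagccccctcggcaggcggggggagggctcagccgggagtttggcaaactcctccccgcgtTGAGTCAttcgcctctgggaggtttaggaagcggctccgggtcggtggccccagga
ITGB8 promoter, chr7:20330650-20330949, plus strand: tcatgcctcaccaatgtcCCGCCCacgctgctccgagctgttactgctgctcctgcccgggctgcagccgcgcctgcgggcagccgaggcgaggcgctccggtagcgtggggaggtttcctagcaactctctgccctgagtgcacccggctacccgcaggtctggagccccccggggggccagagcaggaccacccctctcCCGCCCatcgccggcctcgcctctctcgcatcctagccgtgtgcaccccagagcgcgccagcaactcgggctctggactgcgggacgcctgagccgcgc
Both windows are rich in G and C, at 69.3% in ITGA5 and 71.7% in ITGB8, against 31.7% in the window of ITGB6. A match says only that these letters are present.

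The 3′ untranslated regions were searched for AACACGT and ACACGTA, both 7-base stretches of the hairpin 1 target, which had been picked earlier from a ranking made on these same data. The target of hairpin 1 and the single match among the 9 genes are shown with the shared stretch in capitals.
Hairpin 1 target in FOXA2, chromosome 20: gaacggcatgaACACGTAcat
ITGB8 site, chr7:20413101-20413107, plus strand: actgcagtgcACACGTAtttataaaca
The coordinates are those of the capitals on GRCh38, and the sequence is from GENCODE v29. Of tested genes with an annotated 3′ untranslated region, 5.82% hold either stretch. No other stretch of the target was searched. The stretches came from these same data, so the rise of ITGB8, the member with the match, is no test of the hairpin. Whether the hairpin acts on ITGB8 was not tested.

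Levels of different genes were compared per length, as TMM-scaled CPM per kilobase over all 8 libraries. ITGB1 was the most abundant of the 9 in every library, at 74.0 ± 1.35 in shFOXA2, 62.1 ± 1.95 in shNC (SD, n = 3 each), 52.3 in SW620 and 29.6 in SW480. ITGB5 was next in every library, at 22.3 ± 4.00 in shFOXA2, 18.9 ± 1.09 in shNC, 15.2 in SW620 and 24.4 in SW480. Below these, the order in shFOXA2 was ITGA5 (7.22), ITGAE (6.10), ITGAV (5.56), ITGB8 (4.37), ITGA2 (3.85), ITGA3 (3.06) and ITGB6 (2.02), each a level in CPM per kilobase. In that order only ITGB8 and ITGA2 overlapped between neighbours. In shNC the order was ITGAE (6.91), ITGA5 (4.71), ITGAV (3.54), ITGA2 (2.55), ITGB8 (2.35), ITGB6 (1.66) and ITGA3 (1.65), with overlap between ITGA2 and ITGB8 and between ITGB6 and ITGA3. Among the 5 alpha genes of the set, ITGAE thus led in shNC and ITGA5 in shFOXA2, while the hemidesmosome gene ITGA6 was far above both, at 75.5 CPM per kilobase in shFOXA2 and 62.8 in shNC.

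**Figure D3:**
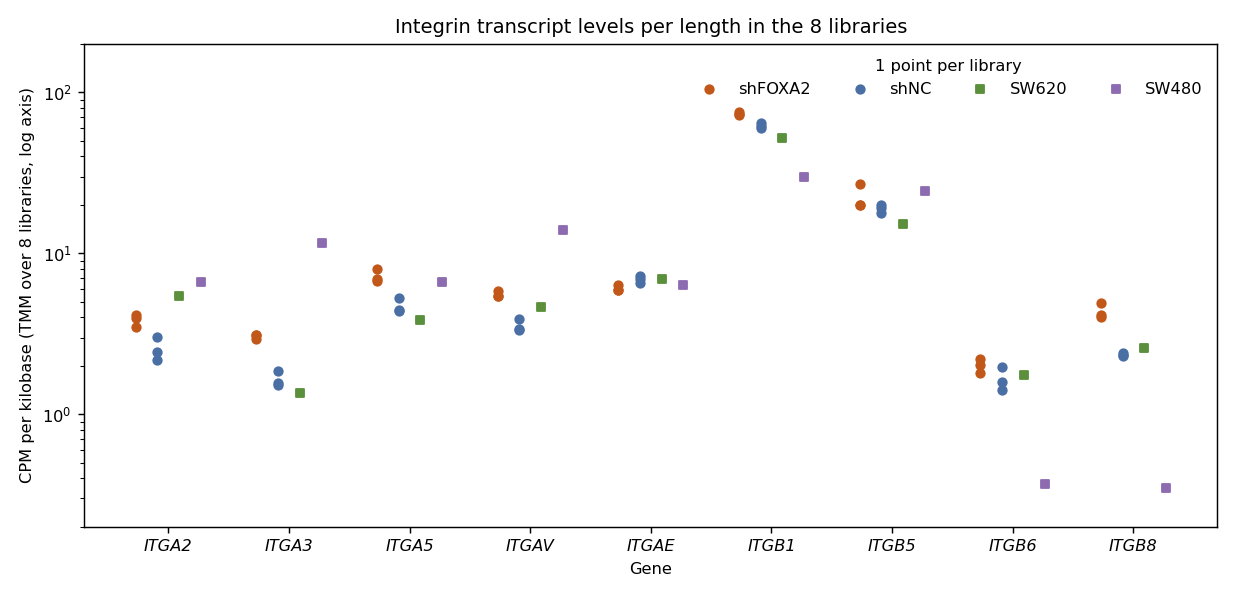
Level of each integrin gene in every library as TMM-scaled CPM per kilobase of listed length, on a log axis. Circles are hairpin libraries and squares are the untreated lines, with 1 library each. ITGB1 tops every library, and ITGB6 and ITGB8 fall below 0.4 CPM per kilobase in SW480 only.

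Within the 5 alpha subunits, summed per length, ITGAE made up 23.6% ± 0.617 in shFOXA2 and 35.8% ± 2.52 in shNC (SD, n = 3 each). The shares of ITGA3 were 11.9% ± 0.583 in shFOXA2 and 8.50% ± 0.283 in shNC, and those of ITGA5 were 28.0% ± 2.21 in shFOXA2 and 24.3% ± 1.01 in shNC. The share of ITGAV was 21.6% ± 0.948 in shFOXA2 and 18.3% ± 0.665 in shNC. The libraries of the groups did not overlap for any of these shares, and they overlapped for ITGA2. Untreated SW620 gave 31.1% for ITGAE and 24.5% for ITGA2, the highest ITGA2 share of the 8 libraries, while SW480 gave 14.0% for ITGAE, 25.7% for ITGA3 and 31.0% for ITGAV. Shares within a sum move against each other, so a lower share of ITGAE does not mean fewer ITGAE transcripts.

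Among the beta subunits that pair with ITGAV, ITGB8 held 4.26% ± 0.517 in shFOXA2 and 2.76% ± 0.0697 in shNC, again without overlap. ITGB1 held 72.1% ± 2.44 in shFOXA2 and 73.0% ± 1.36 in shNC, and ITGB5 held 21.6% ± 3.11 in shFOXA2 and 22.3% ± 1.55 in shNC, differences within the spread of replicates. ITGB6 held 1.97% ± 0.260 in shFOXA2 and 1.95% ± 0.313 in shNC. ITGB3, the last of the beta subunits that pair with ITGAV, had 0 to 0.136 CPM in shFOXA2 and 0.0814 to 0.231 CPM in shNC, which is at most 3 counts in each library. In SW480 the makeup differed, with 44.5% ITGB5 and 54.0% ITGB1, against 21.2% ITGB5 and 72.8% ITGB1 in SW620.

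**Figure D4:**
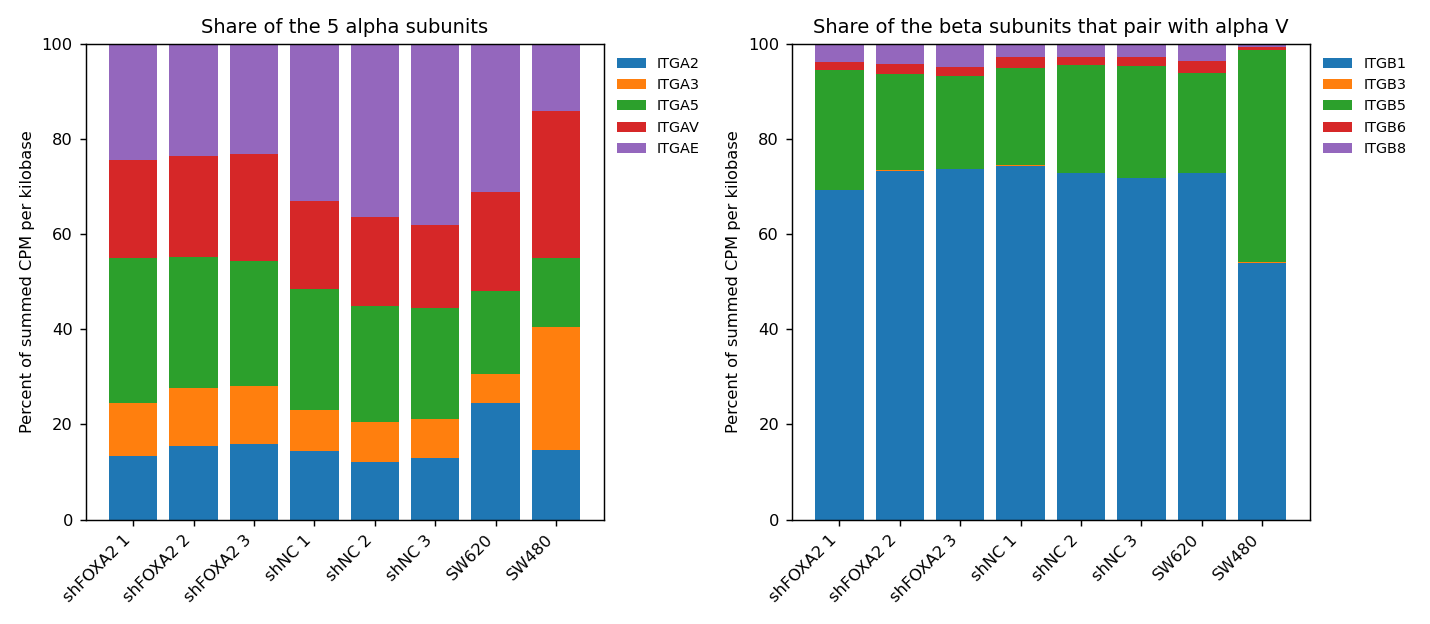
Composition of integrin transcripts per library, as percent of summed CPM per kilobase. Left, the 5 alpha subunits, and right, the beta subunits that pair with ITGAV. ITGAE takes 23.1% to 24.3% of the alpha sum in shFOXA2 and 33.1% to 38.0% in shNC, and SW480 stands out by its ITGB5 share of 44.5%.

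Each untreated line had 1 library, so their comparison has no test and no replicate check, and the intervals given are exact 95% intervals that cover counting error only. Of the 9 genes, 2 were at least 2-fold higher in SW620 than in SW480, against 7.99% of 21343 genes with at least 20 counts, and 2 were at least 2-fold lower, against 8.85%. The higher ones were the beta subunits for latent TGF-beta. ITGB8 had 3754 counts in SW620 and 364 in SW480 (7.51-fold higher in SW620, 6.74 to 8.39), and ITGB6 had 1066 counts in SW620 and 161 in SW480 (4.82-fold, 4.08 to 5.73). The lower ones were alpha subunits. ITGA3 had 1265 counts in SW620 and 7880 in SW480, or 8.55-fold higher in SW480 (8.06 to 9.08), and ITGAV had 3625 counts in SW620 and 7943 in SW480, or 3.01-fold higher in SW480 (2.89 to 3.13).

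The other members differed by less than 2-fold. ITGB1 was 1.79-fold higher in SW620 (1.75 to 1.83) and ITGAE 1.10-fold higher (1.05 to 1.15). ITGA5 was 1.69-fold higher in SW480 (1.61 to 1.78), ITGB5 1.59-fold (1.54 to 1.63) and ITGA2 1.22-fold (1.17 to 1.28). The median log2 ratio of SW620 over SW480 was -0.28 over the 9 genes and 0.02 over all genes with enough counts. Set beside the hairpin comparison, ITGB8 and ITGB1 were higher in shFOXA2 than in shNC and in SW620 than in SW480. ITGA2, ITGA3, ITGA5 and ITGAV were higher in shFOXA2 than in shNC and lower in SW620 than in SW480. The comparisons share no libraries, and FOXA2 was 18.0-fold higher in SW620 than in SW480 (16.1 to 20.2).

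The remaining integrin genes were followed as a list of 17, of which 8 could be tested in the hairpin libraries. Of these, 6 rose and 0 fell, against 19.2% and 19.8% of all tested genes. Those that rose were ITGB7, ITGB4, ITGA6, ITGB2, ITGA1 and ITGA7, and the median log2 fold change of the list was 0.55. Without shFOXA2 replicate 2 the median was 0.29. Besides ITGB7, the hemidesmosome subunits ITGB4 (0.68) and ITGA6 (0.30) rose on the log2 scale, all by edgeR. ITGB2, the beta subunit of leukocyte integrins, had 5.94, 5.30 and 4.31 CPM in shFOXA2, against 1.246, 1.69 and 1.46 CPM in shNC (log2 fold change 1.82, SE 0.24, edgeR adjusted p = 4.10e-08), and it also counts among the leukocyte markers that were higher in sum. ITGA1, another collagen receptor, overlapped between groups, and it did not pass when shFOXA2 replicate 1 (edgeR adjusted p = 0.113), replicate 3 of the same group (0.0663) or replicate 3 of shNC (0.108) was left out. ITGA7, with a log2 fold change of 0.25, likewise lost its call without any of 4 libraries (shFOXA2 replicates 2 and 3, shNC replicates 1 and 2), with edgeR adjusted p from 0.0563 to 0.104. Without shFOXA2 replicate 3, 4 of 10 tested genes of the list rose. Between the lines, ITGB7 was 19.0-fold higher in SW620 (15.2 to 24.2), and ITGA1 (4.61-fold, 4.29 to 4.96) and ITGA9 (9.19-fold, 7.02 to 12.2) were higher in SW480.

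Of 23 tested ligand genes, 14 rose in shFOXA2 and 0 fell, against 19.2% and 19.8% of all tested genes. Their median log2 fold change was 0.42. ICAM1, LAMB1 and LAMB2 each lost the call when some single library was left out. Tenascin C, encoded by TNC and a matrix ligand of several of these receptors, had 2152, 2410 and 2417 CPM in shFOXA2, against 932, 1034 and 915 CPM in shNC. It rose 2.42-fold (log2 fold change 1.28, SE 0.05, edgeR adjusted p = 8.67e-16), with tight groups far apart. The metalloprotease ADAM9 (0.70), the laminin chain LAMC1 (0.76), the collagen VI chain COL6A1 (0.78) and the matricellular protein CYR61 (1.68) rose as well, on the log2 scale. E-cadherin, CDH1, the ligand of the ITGAE receptor, did not pass (log2 fold change 0.18, edgeR adjusted p = 0.0576). Fibronectin, FN1, averaged 44.5 ± 39.8 CPM in shFOXA2 and 14.5 ± 0.732 CPM in shNC (SD, n = 3 each), without overlap. Its counts before scaling for depth were 1082, 156 and 219 in shFOXA2 against 180, 199 and 173 in shNC. FN1 did not pass (log2 fold change 1.67, SE 0.75, edgeR adjusted p = 0.171), and vitronectin, VTN, did not pass either. Between the lines, TNC (36.1-fold, 34.2 to 38.2) and THBS1 (18.0-fold, 16.96 to 19.0) were higher in SW620, and NPNT, encoding nephronectin, was higher in SW480 (68.8-fold, 46.0 to 108).

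Among 41 tested adaptors and kinases of integrin adhesions, 19 rose and 4 fell in shFOXA2, against 19.2% and 19.8% of all tested genes. Their median log2 fold change was 0.18, and 0.10 without shFOXA2 replicate 1. With DESeq2, 14 rose and 4 fell. BCAR1 lost its call whichever single library was left out, and PXN, PARVA, TGFB1I1 and TLN2 lost theirs without some single libraries. Vinculin, VCL, which links talin to actin, had 232, 247 and 251 CPM in shFOXA2, against 131, 139 and 133 CPM in shNC, or 1.81-fold more (log2 fold change 0.86, SE 0.05, edgeR adjusted p = 2.18e-19). Caveolin, CAV1 (1.43), the actin crosslinker FLNA (0.50) and the small GTPase RAP1B (0.54), which acts in integrin activation, rose on the log2 scale. The tensin TNS3, which binds beta subunit tails, went the other way, with 279.6, 277 and 284 CPM in shFOXA2, against 468, 444 and 459 CPM in shNC (log2 fold change -0.70, SE 0.04, edgeR adjusted p = 7.44e-18). Among kinases of the list, FYN rose (log2 fold change 0.27, edgeR adjusted p = 6.00e-06), while PTK2 (focal adhesion kinase, -0.02), SRC (-0.02) and ILK (-0.04) did not pass. Between the lines, CAV1 (23.3-fold, 20.6 to 26.4) and KANK1 (10.4-fold, 9.57 to 11.4) were higher in SW620, and LIMS1 was higher in SW480 (7.86-fold, 7.69 to 8.04).

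For the TGF-beta system that the ITGB6 and ITGB8 receptors engage, 7 of 14 tested genes rose and 0 fell in shFOXA2. Of all tested genes 19.2% rose and 19.8% fell. The median log2 fold change of the 14 was 0.33, and 0.21 without replicate 1 of both groups. TGFBR2, a TGF-beta receptor, had 245, 253 and 259 CPM in shFOXA2, against 117, 104 and 111 CPM in shNC (log2 fold change 1.19, SE 0.05, edgeR adjusted p = 1.23e-23). TGFBR1 (0.56), the latent TGF-beta binding proteins LTBP3 (0.31) and LTBP4 (0.57) and the inhibitor SMAD7 (1.13) also rose on the log2 scale. Between the lines, LTBP2 (13.5-fold, 11.3 to 16.3) and SMAD7 (10.6-fold, 9.23 to 12.3) were higher in SW480. TGFBR2 was higher in SW620, with 9954 counts in SW620 and 1515 in SW480. TGFBR1 went the other way, with 3864 counts in SW620 and 14999 in SW480. Of the 15 genes of this list that had enough counts, 1 was past 2-fold upward in SW620 and 6 were past it downward.

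The genes with profiles closest to ITGB8, ITGA3 and ITGAV, the members with the smallest p, were found by the root mean square difference of centred log2(CPM + 1) over the 8 libraries, among 13017 other genes. Nearest to ITGB8 were C6orf15 (difference 0.16), MYOF (0.19) and TGFBR2 (0.19), where the median gene was at 1.06. C6orf15 had 20 counts in SW480, the lowest number that a gene could have here. Nearest to ITGA3 were PADI1 (0.14), UGCG (0.15) and WLS (0.16), with the median gene at 0.97. Nearest to ITGAV were FAT1 (0.08), TDRD7 (0.11) and GNG10 (0.11), with the median gene at 0.68. The likeness rests on 8 libraries that fall into 4 groups and describes these profiles only. Hairpin and untreated libraries also differed in mitochondrial reads, at 4.46% to 4.82% of counts in the hairpin libraries, 11.1% in SW620 and 11.7% in SW480.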

How the data were processed

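RNA sequencing of total RNA gave 1 deposited table per library, with raw counts per gene, gene length and RPKM. Per the labels' protocols, a directional kit was used; the submitters' processing notes name HOMER and hg19 without a role, and no source used here gives the aligner, counter, annotation or use of strand. The authors' RPKM values equalled count per length and total within 1e-04 for 100% of genes above 20 counts and were not used further. Of 40693 symbols, 256 were repeated, and the row with the highest summed count was kept.

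Deposited counts of 3 shFOXA2 and 3 shNC libraries were compared with edgeR 4.0.16 (quasi-likelihood, robust, TMM, default expression filter, two-sided) in R 4.3.3, adjusted by Benjamini-Hochberg. SE is the log2 fold change divided by the square root of F. DESeq2 1.42.0 and limma 3.58.1 served as alternatives. Ratios between lines used TMM over both libraries. The counts past a fold limit, the median ratios and the ranking of named genes used a pseudocount of 1 CPM. Folds printed with intervals used none. Locations, untranslated regions and overlaps came from GENCODE v29 on GRCh38, not the hg19 build of the notes. The method was tested on simulated counts.

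The members, lists and named genes (all members, partner integrins, up to 5 called genes per list by p, up to 3 per list by ratio between lines) were chosen with earlier results of these data known. FN1, VTN, CDH1, ITGA7, PTK2, SRC, ILK and FYN were named after their values were seen. One result that this rule would name is not reported here.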

Additional observations from a re-analysis of the deposited data

How the results depend on the processing

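The 6 integrin genes that rose in shFOXA2 passed under every alternative of scaling, filter, test, repeated symbols and omitted library (14 each), with log2 fold changes from 0.25 (ITGB1) to 1.05 (ITGA3), and ITGAE passed under 0. ITGB5 passed with limma-voom (log2 fold change 0.27, adjusted p = 0.0311). ITGB6 passed in 3 cases, the third without replicate 1 of both groups (0.52, edgeR adjusted p = 0.00350), an alternative added after seeing the data; the cause was not tested. No member changed sign. With each library left out in turn, 6 to 7 members were called higher, 0 lower, and 5299 to 5872 genes passed, against 6280. DESeq2 called 4564 genes.

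Deviations of same-numbered libraries correlated at -0.00, -0.05 and -0.01 over genes. These values show no shared effect of replicate number but cannot tell whether the samples were paired. With a replicate block, 6 members and 6139 genes passed. At 4-fold in place of 2-fold, 1 member was higher and 1 lower in SW620. These counts use ratios with the pseudocount, by which ITGB6 (log2 ratio 1.87) fell short of 4-fold. Without the pseudocount ITGB6 was 4.82-fold higher in SW620. No other setting moved the counts at 2-fold. Counts were low for ITGB6, at 105 to 161 per hairpin library, and for ITGB3, at 0 to 3.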
